A study of Mus musculus with 12 samples.

Results

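The genes examined are 10 components of the TGF-beta pathway (Tgfb1, Tgfb2, Tgfb3, Furin, Itgb8, Tgfbr1, Tgfbr2, Smad3, Smad7 and Skil), taken by symbol from the 55401 genes of the bulk RNA-seq tables. All 10 were found, each on a single row, and all 10 were among the 44624 genes tested. The RNA came from migratory dendritic cells (DCs) of liver, pancreas and duodenum, with 4 libraries per tissue and 2 mice pooled in each library. The mice were B6, 6 to 8 weeks old, with no treatment or mutation named in the labels. The sort in all 3 groups kept live CD45+ CD11c+ cells with high MHC class II and with CD103, and left out cells with lineage markers or CD11b, a surface profile of type 1 conventional DCs (cDC1). The study asks how organs that share draining lymph nodes differ, and the comparisons here ask whether their migratory DCs differ in TGF-beta genes.

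TGF-beta is secreted in a latent form. Each ligand is cut by the protease furin and stays bound to its own propeptide until an integrin, such as the pair of Itgav and Itgb8, or another activator releases it. The freed ligand joins the type II receptor (Tgfbr2) to the type I receptor (Tgfbr1), which phosphorylates Smad2 and Smad3. Smad7 and Skil, both induced by the signal in many cells, act against it. In the gut, DCs that carry the Itgb8 integrin are known for activating TGF-beta and thereby favouring regulatory T cells, and TGF-beta raises CD103 on T cells.

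Smad3 differed most of the 10 genes. Its level averaged 1.89 ± 0.625 TPM in liver, 5.07 ± 1.44 TPM in pancreas and 0.701 ± 0.132 TPM in duodenum (SD, n = 4 each), where TPM is a transcript level scaled for gene length and library size. Furin and Tgfbr1 were also higher in DCs of liver and of pancreas than in those of duodenum, and Smad7 was lower. The remaining 6 genes, among them the 3 ligands and Itgb8, passed the test in no comparison. Of the 10 genes, Smad3 alone was called between liver and pancreas.

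In each of the comparisons of liver and of pancreas with duodenum, 3 of the 10 genes were called higher and 1 lower, at an adjusted p under 0.05 (edgeR quasi-likelihood test, adjusted over all genes tested). The background over all genes was 7.32% called for liver against duodenum (3.37% higher and 3.95% lower in liver) and 7.7% for pancreas against duodenum (3.76% higher and 3.94% lower in pancreas), and these comparisons share the duodenum libraries. Between liver and pancreas 1 of the 10 was called, lower in liver, against 1.11% of all genes (0.426% higher and 0.681% lower in liver). The higher genes made up 46% of all calls for liver over duodenum, 48.9% for pancreas over duodenum and 38.5% for liver over pancreas. With DESeq2 size factors the share between liver and duodenum was 35.3%, and with library totals it was 63.5% there and 52.2% between liver and pancreas. The TPM of the libraries did not overlap for 4 of the 10 genes between liver and duodenum, 4 between pancreas and duodenum and 2 between liver and pancreas, against 15.6%, 13.6% and 7.33% of all genes. The median log2 difference of the 10 genes was 0.61, 0.27 and -0.14 in the 3 comparisons, and that of all genes tested was 0.101, 0.0901 and 0.0116. Log2 differences are of counts scaled by TMM, and TPM ratios stood above them by a median of 0.16 between liver and duodenum, 0.07 between pancreas and duodenum and 0.09 between liver and pancreas on the log2 scale.

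**Figure D1:**
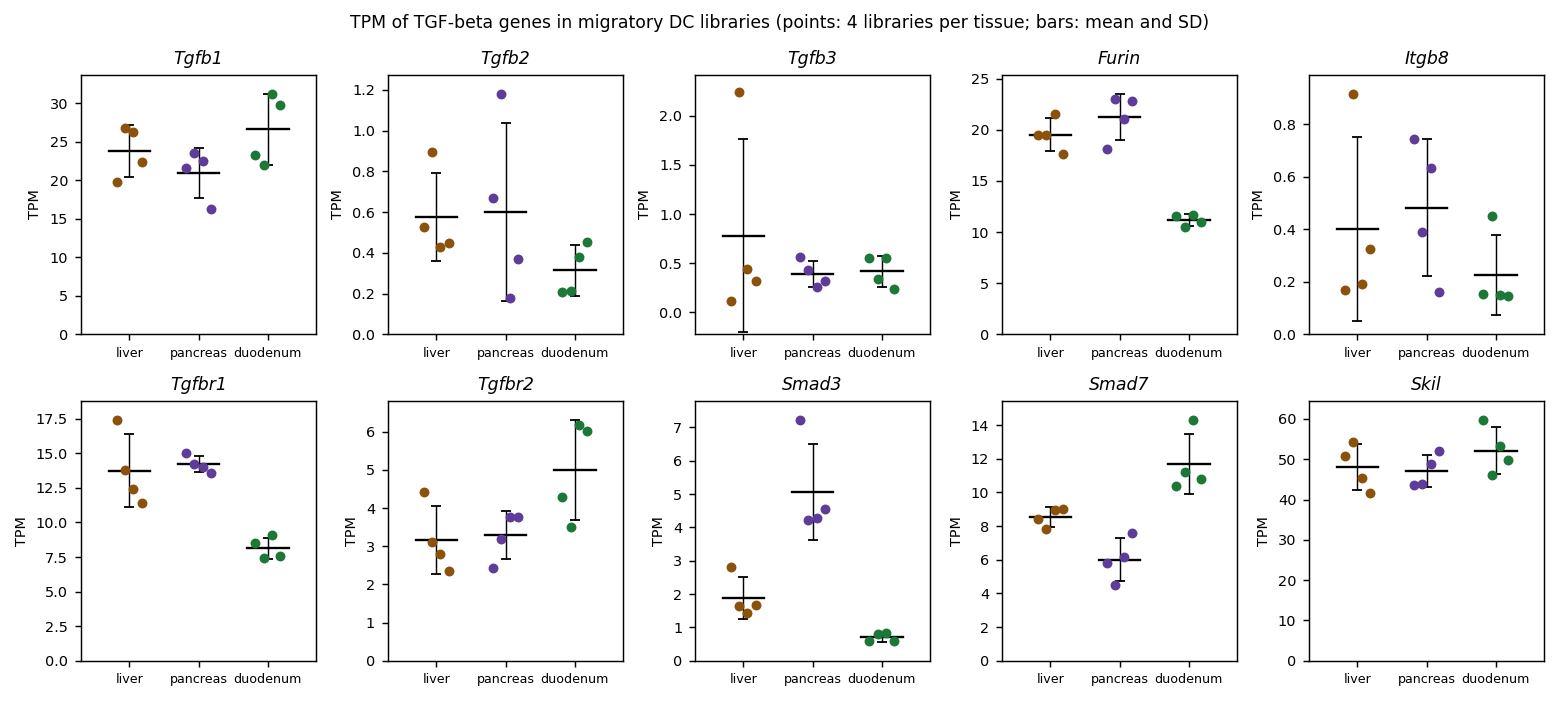
TPM (vertical axes, linear) of the 10 genes in each library, with liver, pancreas and duodenum from left to right; points are the 4 libraries per tissue, and bars give the mean and SD. Smad3 was at 4.21 TPM or more in every pancreas library and at 0.827 TPM or less in every duodenum library.

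Library totals ran from 220.9 to 356.1 M (mega) estimated counts. The 9 sort and cDC1 genes, including Xcr1, Clec9a, Irf8 and Batf3, summed to 19700 to 23500 CPM (a count scaled by library size) in liver, 18300 to 23600 CPM in pancreas and 16800 to 25500 CPM in duodenum. Most of each sum was H2-Ab1, which averaged 17600 CPM in liver, 17700 CPM in pancreas and 18600 CPM in duodenum. In the same order Xcr1 averaged 611, 406 and 535 CPM, and Clec9a 373, 315 and 305 CPM. Irf8 averaged 1360, 1260 and 1500 CPM, and Batf3 106, 95.5 and 130 CPM. Itgam, which encodes the excluded marker CD11b, averaged 1.70 ± 1.15 CPM in liver, 2.67 ± 0.95 CPM in pancreas and 2.46 ± 0.65 CPM in duodenum (SD, n = 4 each). Duodenum 2 stood apart from its group, with correlations of log2 CPM of 0.944 to 0.947 with the other duodenum libraries, against 0.953 to 0.955 among those. Within a tissue each library is a separate biological replicate of pooled mice, so the spread between libraries of a tissue includes that between mice. Whether libraries of different tissues share mice is not stated in the labels.

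Tgfb1, the main ligand of immune cells, was the abundant ligand. In liver its level was 19.7, 26.8, 26.2 and 22.3 TPM, in pancreas 21.6, 23.5, 22.5 and 16.2 TPM, and in duodenum 23.3, 22.0, 31.2 and 29.8 TPM. The 3 ranges overlapped. Tgfb1 made up 89.5 to 96.8% of the summed TPM of the 3 ligands in liver, 93.6 to 98.1% in pancreas and 96.8 to 97.7% in duodenum. The log2 difference was -0.32 between liver and duodenum (95% interval -0.73 to 0.08), -0.42 between pancreas and duodenum (-0.82 to -0.01) and 0.09 between liver and pancreas (-0.32 to 0.50), with adjusted p = 0.406, 0.249 and 0.979 (edgeR). In bulk samples, fewer cells that express a gene and less of its RNA per cell cannot be told apart.

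Tgfb2 and Tgfb3, ligands better known from epithelium and stroma, were low. Tgfb2 ranged from 0.431 to 0.893 TPM in liver, 0.178 to 1.18 TPM in pancreas and 0.207 to 0.455 TPM in duodenum. Tgfb3 was at 0.117, 2.24, 0.439 and 0.322 TPM in liver, 0.263 to 0.562 TPM in pancreas and 0.239 to 0.554 TPM in duodenum. The liver 2 library held the high Tgfb3 value. Neither gene passed the test in any comparison, and their intervals were among the widest of the 10 genes. The 95% interval of the log2 difference between liver and duodenum was -0.32 to 1.70 for Tgfb2 (adjusted p = 0.503) and -0.66 to 2.08 for Tgfb3 (adjusted p = 0.643, edgeR). Between pancreas and duodenum it was -0.19 to 1.84 for Tgfb2 (adjusted p = 0.391) and -1.56 to 1.18 for Tgfb3 (adjusted p = 0.934). The sign for Tgfb3 turned on 1 library. Without liver 2 its log2 difference between liver and duodenum was -0.70, against 0.71 with that library.

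Furin (ENSMUSG00000030530), the protease that cuts the ligand precursors, was at 19.5, 19.5, 21.5 and 17.6 TPM in liver, at 18.1, 23.0, 21.1 and 22.8 TPM in pancreas and at 11.6, 10.5, 11.7 and 11 TPM in duodenum. Every library of liver and pancreas was above every duodenum library, while liver and pancreas overlapped. The log2 difference was 0.64 ± 0.14 between liver and duodenum (SE, adjusted p = 0.0129) and 0.86 ± 0.14 between pancreas and duodenum (adjusted p = 0.00161, edgeR). Between liver and pancreas it was -0.22, with a 95% interval of -0.52 to 0.09. The call in liver ended with DESeq2 size factors (log2 difference 0.55, adjusted p = 0.0613) and without liver 3 (0.50, adjusted p = 0.0734).

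Itgb8, the integrin chain that pairs with Itgav to release the ligand, was low. Its level was 0.169, 0.917, 0.194 and 0.327 TPM in liver, 0.745, 0.389, 0.635 and 0.161 TPM in pancreas and 0.154, 0.453, 0.152 and 0.147 TPM in duodenum, from 170 to 1395 estimated counts per library. The 3 ranges overlapped, and single libraries (liver 2 and duodenum 2) held the highest values of their tissues. The log2 difference was 0.68 between liver and duodenum (95% interval -0.52 to 1.88) and 1.05 between pancreas and duodenum (-0.16 to 2.26), with adjusted p = 0.604 and 0.351 (edgeR). Without liver 2 it was -0.13 between liver and duodenum. Itgav itself, named here after its values were seen, was at 37.9 ± 2.47 TPM in liver, 44.2 ± 5.71 TPM in pancreas and 30.5 ± 2.8 TPM in duodenum (SD, n = 4 each). It was called in no comparison (lowest adjusted p = 0.0752, between pancreas and duodenum).

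Tgfbr1 (ENSMUSG00000007613), the type I receptor kinase, was at 17.4, 13.8, 12.4 and 11.4 TPM in liver, at 15.0, 14.2, 14.0 and 13.6 TPM in pancreas and at 8.48, 7.44, 9.06 and 7.58 TPM in duodenum. No library of liver or pancreas reached down to the duodenum range. The log2 difference was 0.59 ± 0.15 between liver and duodenum (SE, adjusted p = 0.0228) and 0.73 ± 0.15 between pancreas and duodenum (adjusted p = 0.00564, edgeR). The call in liver ended without any of liver 1, 2 or 3, duodenum 2 or 4, or pancreas 4, with a log2 difference of 0.42 to 0.56 (adjusted p = 0.0507 to 0.135), with DESeq2 size factors (0.49, adjusted p = 0.0929) and with the 8 libraries compared alone (0.59, adjusted p = 0.0522).

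Tgfbr2, the type II receptor that binds the ligand first, went the other way without passing the test. It was at 4.43, 3.10, 2.81 and 2.35 TPM in liver, at 2.44, 3.18, 3.76 and 3.78 TPM in pancreas and at 4.30, 3.51, 6.17 and 6.02 TPM in duodenum. Liver 1 and the 2 highest pancreas libraries lay inside the duodenum range. The log2 difference was -0.83 between liver and duodenum (95% interval -1.38 to -0.29, adjusted p = 0.0655) and -0.67 between pancreas and duodenum (-1.22 to -0.13, adjusted p = 0.146, edgeR). Without duodenum 2 both were called lower (-1.06, adjusted p = 0.0106, and -0.90, adjusted p = 0.0261), and DESeq2 called both with all libraries (adjusted p = 0.0106 and 0.049). Both were also called in the fit to genes with a mean of at least 1 CPM. The liver difference was called too without liver 1 and without pancreas 1. In all, 5 of 23 alternatives called it in liver and 3 of 23 in pancreas.

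The TPM ratio of Tgfbr1 to Tgfbr2 within a library, a measure chosen after the values were seen, ran from 3.93 to 4.84 in liver, 3.6 to 6.16 in pancreas and 1.26 to 2.12 in duodenum. All ratios of liver and pancreas were above those of duodenum.

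Smad3 (ENSMUSG00000032402), the receptor-activated Smad that binds DNA directly, was at 2.82, 1.65, 1.44 and 1.66 TPM in liver, at 7.22, 4.21, 4.29 and 4.56 TPM in pancreas and at 0.597, 0.801, 0.827 and 0.578 TPM in duodenum. The 3 ranges did not overlap, and pancreas was highest, liver next and duodenum lowest. Liver exceeded duodenum 2.41-fold in Smad3 (log2 difference 1.27 ± 0.23, SE, adjusted p = 0.00299), and pancreas exceeded it 6.82-fold (2.77 ± 0.24, adjusted p = 4.11e-06, edgeR). Between liver and pancreas it was -1.50 ± 0.23 (adjusted p = 0.00334), so neighbouring tissues in this order differed beyond their spread. Liver 1 and pancreas 1 were the high libraries of their groups. Without pancreas 1 the log2 difference between pancreas and duodenum was 2.57 (adjusted p = 2.02e-05), and without liver 1 that between liver and duodenum was 0.98 (adjusted p = 0.012).

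Pancreas 1 was also the library with the highest sum of acinar transcripts, 4340 CPM, and pancreas 2 that with the lowest in pancreas, 656 CPM, where Smad3 was at 4.21 TPM. The call between liver and pancreas ended without liver 2, pancreas 3 and pancreas 4 together, 3 libraries noted for immunoglobulin reads in an earlier analysis of these data (log2 difference -1.56, adjusted p = 0.0761). Without them the calls of Furin and Tgfbr1 in both comparisons with duodenum and of Smad7 in liver ended too, with adjusted p = 0.0796 to 0.141. That fit holds fewer liver and pancreas libraries, and its calls over all genes fell as well. They fell from 494 to 177 between liver and pancreas and from 3437 to 1712 between pancreas and duodenum. The part of the smaller number of libraries in the lost calls was not tested. B and plasma cell genes summed to 215, 455 and 513 CPM in these 3 libraries, and to 5780 CPM or more in every duodenum library.

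**Figure D2:**
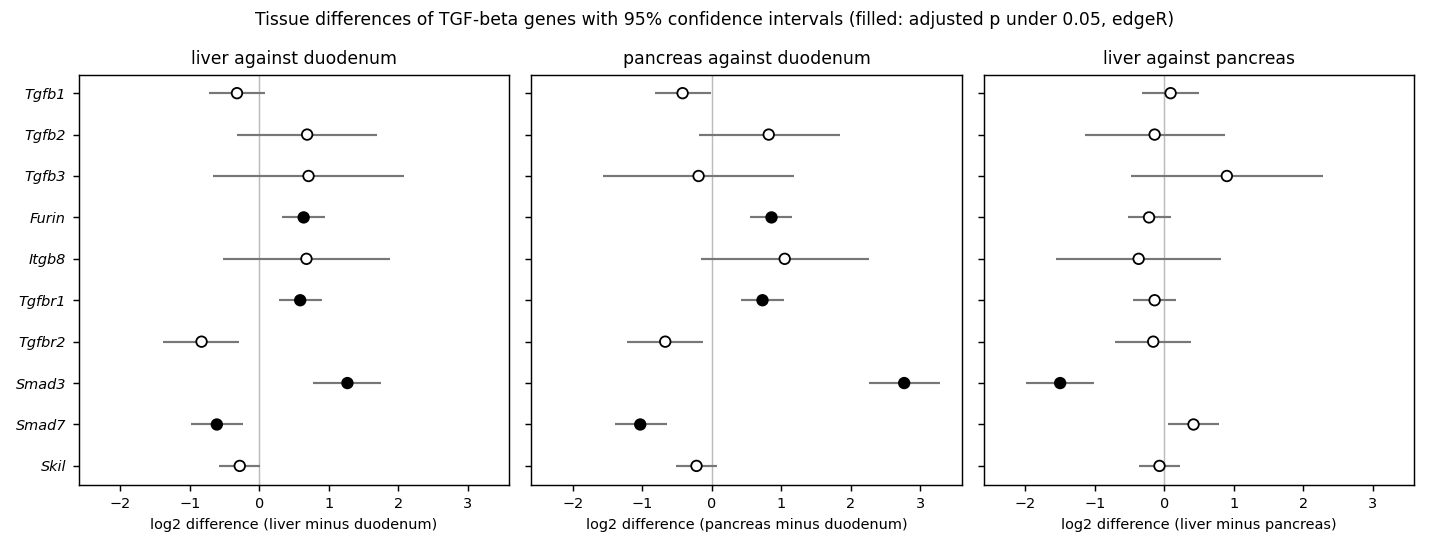
Log2 differences (horizontal axes) of the 10 genes between liver and duodenum, pancreas and duodenum, and liver and pancreas, from the fit to all 12 libraries; lines are 95% confidence intervals and filled points have an adjusted p under 0.05. Smad3 lay at 1.27, 2.77 and -1.50, and the ligands and Itgb8 had open points in every panel.

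Smad7 (ENSMUSG00000025880), the inhibitory Smad that blocks the type I receptor, was at 8.40, 7.80, 8.94 and 9.04 TPM in liver, at 5.78, 4.52, 6.14 and 7.60 TPM in pancreas and at 10.4, 11.2, 14.3 and 10.8 TPM in duodenum. The ranges did not overlap and ran opposite to those of Smad3, with duodenum highest and pancreas lowest. The log2 difference of Smad7 from duodenum was -0.61 ± 0.17 for liver (SE, adjusted p = 0.0473) and -1.03 ± 0.17 for pancreas (adjusted p = 0.00175, edgeR). The liver to pancreas difference was 0.42 (95% interval 0.05 to 0.79) and did not pass (adjusted p = 0.444), so these neighbours in the order were not told apart by the test.

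The Smad7 call in pancreas held under all 23 alternatives tried. That in liver was lost in 11 of 23, including library totals in place of TMM (-0.45, adjusted p = 0.0826), limma on log2 TPM (-0.40 to -0.44) and the omission of any of liver 1, 2 or 4 or duodenum 1, 3 or 4 (-0.49 to -0.68, adjusted p = 0.068 to 0.154).

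Skil, a nuclear co-repressor that binds Smads, was the most abundant of the 10 genes. It was at 50.8, 54.3, 45.4 and 41.7 TPM in liver, at 43.7, 43.8, 48.8 and 52.0 TPM in pancreas and at 59.7, 46.0, 53.2 and 49.7 TPM in duodenum. The ranges overlapped, and no comparison with all libraries passed. The 95% interval was -0.58 to 0.01 between liver and duodenum, -0.51 to 0.08 between pancreas and duodenum and -0.36 to 0.23 between liver and pancreas on the log2 scale. Without duodenum 2, Skil was called lower in liver than in duodenum (-0.43, adjusted p = 0.0331).

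The TPM ratio of Smad3 to Smad7 within a library, also chosen after the values were seen, was 0.160 to 0.335 in liver, 0.600 to 1.25 in pancreas and 0.0536 to 0.0712 in duodenum. The tissues did not overlap. This was fixed by the ranges of Smad3 and of Smad7, which were each separate and ran in opposite order, so the ratio adds no evidence.

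**Figure D3:**
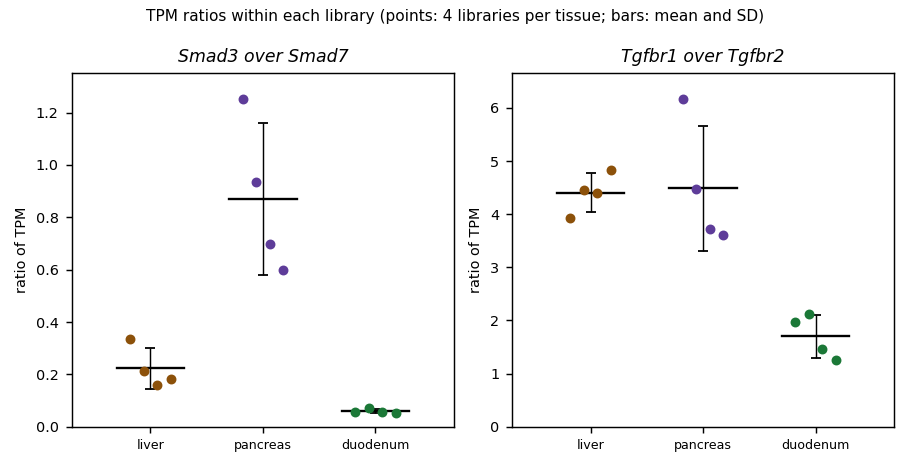
Ratio of TPM within each library (vertical axes, linear from 0) of Smad3 over Smad7 and of Tgfbr1 over Tgfbr2, with liver, pancreas and duodenum from left to right; points are the 4 libraries per tissue, and bars give the mean and SD. The Smad3 over Smad7 ratio averaged 0.223 in liver, 0.870 in pancreas and 0.0601 in duodenum.

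Promoter sequence is shown for Smad3, Tgfbr1 and Furin, the 3 genes called higher in both comparisons with duodenum. RefSeq promoters (build GRCm38.p6, which is not the build named for the counts) were found for 7 of the 10 genes, all but Tgfb3, Smad7 and Skil. The windows are the 250 bases before the start, 5′ to 3′ on the gene's strand, at chr9:63757995-63758244 (minus strand) for Smad3, chr4:47352972-47353221 (plus strand) for Tgfbr1 and chr7:80405437-80405686 (minus strand) for Furin. For Tgfbr1 and Furin, which have 2 starts in the table, the more upstream is given. Capitals mark the only match to a searched motif.
Smad3: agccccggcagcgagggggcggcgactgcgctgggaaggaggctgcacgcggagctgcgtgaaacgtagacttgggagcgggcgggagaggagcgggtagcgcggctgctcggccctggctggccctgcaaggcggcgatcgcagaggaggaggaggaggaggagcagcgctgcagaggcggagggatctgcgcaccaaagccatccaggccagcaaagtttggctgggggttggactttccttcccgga
Tgfbr1: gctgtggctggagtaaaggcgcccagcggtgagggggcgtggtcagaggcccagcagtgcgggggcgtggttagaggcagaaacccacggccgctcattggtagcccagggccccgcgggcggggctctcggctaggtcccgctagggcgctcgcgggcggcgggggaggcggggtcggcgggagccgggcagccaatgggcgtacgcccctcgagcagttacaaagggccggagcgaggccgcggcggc
Furin: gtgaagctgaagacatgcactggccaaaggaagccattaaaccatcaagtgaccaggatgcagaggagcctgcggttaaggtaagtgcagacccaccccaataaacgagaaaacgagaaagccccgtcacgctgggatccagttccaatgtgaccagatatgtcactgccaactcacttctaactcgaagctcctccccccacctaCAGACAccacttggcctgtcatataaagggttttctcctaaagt
The motifs searched on both strands were the Smad box CAGACA, the Smad palindrome GTCTAGAC and the AP-1 site TGANTCA. Furin held 1 Smad box that begins 44 bases before the start, and the letters of the motifs were not in the Smad3 and Tgfbr1 windows printed. The windows of the second starts, not printed, held 1 Smad box for Tgfbr1, 203 bases before that start, and 1 for Furin, 190 bases before it. Tgfb2 and Itgb8, called in no comparison, also held 1 Smad box each, 204 and 196 bases before the start. The windows of Tgfb1 and Tgfbr2 held no match. Of 32851 promoter windows of the same length, 17.1% held the Smad box, 0.167% the palindrome and 6.75% the AP-1 site. The GC content was 69.2% for Smad3, 74.8% for Tgfbr1 and 50.4% for Furin, against a median of 52.4% over all windows.

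Summed levels of transcripts that mark other cells or cell states also differed between the tissues. The 8 acinar genes summed to 2.58 to 4.01 CPM in liver, 656 to 4340 CPM in pancreas and 2.11 to 12.5 CPM in duodenum, and the 7 B and plasma cell genes to 134 to 215 CPM in liver, 132 to 513 CPM in pancreas and 5780 to 8670 CPM in duodenum. Most of that duodenum sum was Igha, which averaged 0.172 CPM in liver, 2.61 CPM in pancreas and 5540 CPM in duodenum. Jchain averaged 19.1, 63.6 and 1520 CPM in the same order. Cd79a, Cd79b, Ms4a1 and Mzb1 also averaged highest in duodenum, at far lower levels. Ighm was instead highest on average in pancreas, at 137, 237 and 171 CPM. The 9 stromal genes stood at 51.5 and 55.0 CPM in pancreas 3 and pancreas 4 and at 6.09 to 12.7 CPM in the other 10 libraries. The 6 cDC2 genes summed to 5.99 to 11.4 CPM in liver, 11.2 to 13.2 CPM in pancreas and 41.3 to 47.2 CPM in duodenum. The 4 monocyte genes, led by Ccr2, summed to 379 to 425 CPM in liver, 419 to 551 CPM in pancreas and 46.1 to 94.7 CPM in duodenum. Ccr2 alone averaged 390 ± 20.8 CPM in liver, 453 ± 62.5 CPM in pancreas and 41.7 ± 13.3 CPM in duodenum. Ly6c2 was instead highest on average in duodenum, at 16.1 ± 1.97, 5.14 ± 2.31 and 26.2 ± 13.5 CPM in the same order (SD, n = 4 each). The 5 endothelial genes summed to 28.1 to 35.5 CPM in liver, 32.8 to 42.3 CPM in pancreas and 60.9 to 84.8 CPM in duodenum. Most of that sum was Vwf, at 20 ± 3.05 CPM in liver, 28.9 ± 4.8 CPM in pancreas and 56.4 ± 10.4 CPM in duodenum (SD, n = 4 each), while Cdh5 and Tek averaged under 1 CPM in each tissue. The 6 hepatocyte genes summed to 24.1 to 37.3 CPM in liver, 1.2 to 1.9 CPM in pancreas and 0.885 to 2.56 CPM in duodenum. The 5 platelet genes summed to 6.15 CPM or less in every library. None of the listed markers was at 0 in all 12 libraries.

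Fos, an immediate-early gene, was at 32.6 to 37.2 TPM in liver, 44.7 to 98.4 TPM in pancreas and 449 to 700 TPM in duodenum. Ccr7, the receptor that guides maturing DCs to lymph nodes, was at 77.7 to 161 TPM in liver, 89.3 to 194 TPM in pancreas and 4.32 to 16.3 TPM in duodenum. These levels, and the monocyte, cDC2, endothelial and B and plasma cell sums, set liver and pancreas apart from duodenum as Furin, Tgfbr1, Smad3 and Smad7 do, and their part in those differences was not tested.

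The pathway around the 10 genes was read from 114 other genes grouped by role, all of which were tested. Between liver and duodenum 7 were higher and 11 lower, 15.8% of the list against 7.32% of all genes. Between pancreas and duodenum 13 were higher and 9 lower, 19.3% against 7.7%. Between liver and pancreas 1 was higher and 3 lower, 3.51% against 1.11%. The background depends on how many low genes are tested. Among genes with a mean of at least 1 CPM, fitted alone, 22 of 87 list genes (25.3%) were called between liver and duodenum, against 26.2% of all such genes. There 35 of 87 (40.2%) were called between pancreas and duodenum, against 26.5%, and 8 of 87 (9.2%) between liver and pancreas, against 5.42%. In the same fit 5, 5 and 1 of the 10 genes described above were called in these comparisons. The median log2 difference of the list was 0.10, 0.11 and -0.06 in these comparisons, against 0.101, 0.0901 and 0.0116 over all genes.

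**Figure D4:**
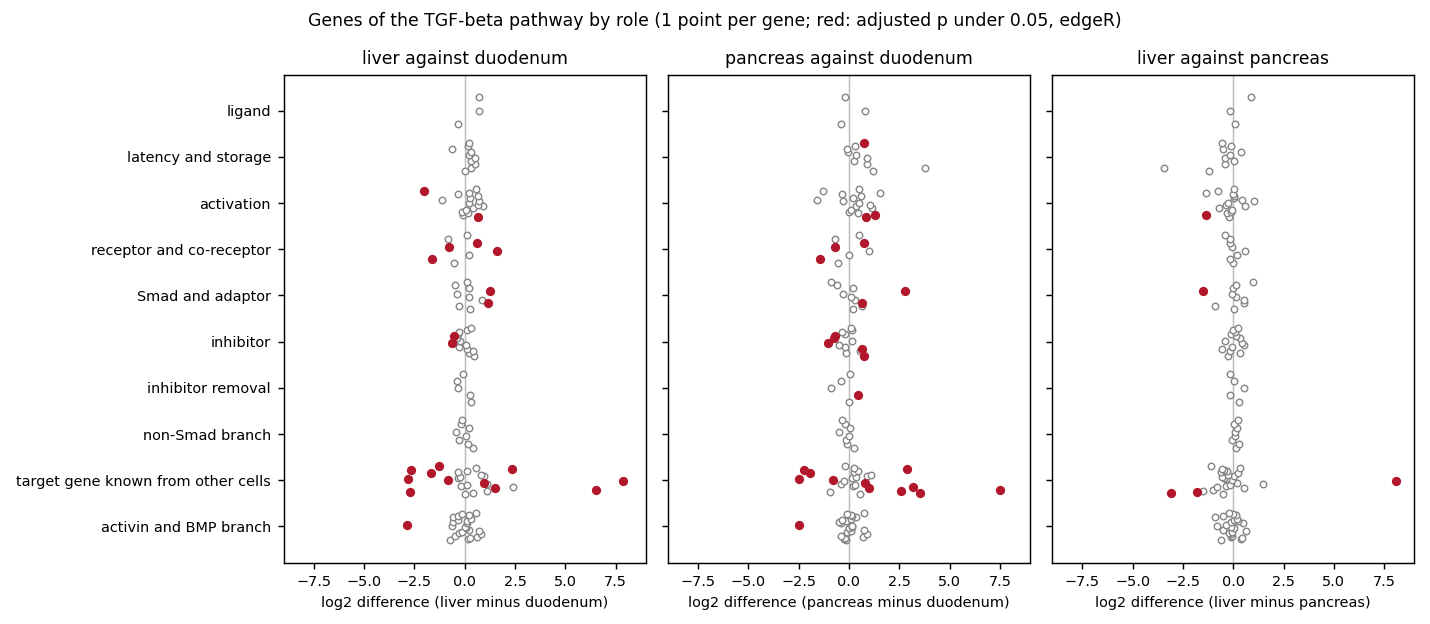
Log2 differences (horizontal axes) of the 124 pathway genes, including the 10 described above, in rows by role, with 1 point per gene and a panel per comparison; red points have an adjusted p under 0.05 (edgeR). Among genes known as TGF-beta targets in other cells, 11 of 25 (44%) were called in each comparison with duodenum, against 7.32% of all genes for liver and 7.7% for pancreas. Over all genes with a mean of at least 1 CPM, fitted alone, these shares were 26.2% and 26.5%.

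Of 10 genes for latency and storage, 1 was called in any comparison, higher in pancreas than in duodenum (10%, against 7.7% of all genes). It was Nrros, which anchors latent TGF-beta on myeloid cells, at 50.2 ± 7.6 TPM in liver, 68.3 ± 4.6 TPM in pancreas and 38.0 ± 8.15 TPM in duodenum (SD, n = 4 each). The log2 difference between pancreas and duodenum was 0.77 ± 0.19 (SE, adjusted p = 0.0194, edgeR), a call that ended without duodenum 1, pancreas 3 or pancreas 4, and with DESeq2 size factors. Lrrc32, the anchor used by regulatory T cells, averaged 0.927 ± 0.128, 1.14 ± 0.33 and 0.588 ± 0.269 TPM in liver, pancreas and duodenum.

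Among 15 other genes of activation, 1 was lower in liver and 1 higher in pancreas than in duodenum. Each was 6.67% of the 15, against 7.32% of all genes for liver and 7.7% for pancreas. Igf2r, a mannose 6-phosphate receptor that can bind the latent ligand, was at 6.52 ± 0.717 TPM in liver, 15.4 ± 1.64 TPM in pancreas and 6.11 ± 0.715 TPM in duodenum (SD, n = 4 each). It was higher in pancreas than in duodenum (1.27 ± 0.15, SE, adjusted p = 6.12e-05) and lower in liver than in pancreas (-1.34 ± 0.15, adjusted p = 0.000156, edgeR), under all alternatives. Plaur, the urokinase receptor, was lower in liver than in duodenum (-2.03 ± 0.45, adjusted p = 0.0113).

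Of 6 other receptor genes, 1 was higher and 2 lower in the liver comparison with duodenum, and 2 were lower in that of pancreas. These were 50% and 33.3% of the 6, against 7.32% and 7.7% of all genes. Bambi, a decoy that lacks the kinase domain, was at 0.561 ± 0.248 TPM in liver, 0.594 ± 0.152 TPM in pancreas and 1.54 ± 0.512 TPM in duodenum (SD, n = 4 each). Liver differed from duodenum by -1.61 ± 0.32 (SE, adjusted p = 0.00577) and pancreas by -1.43 ± 0.31 (adjusted p = 0.0108, edgeR), a call that ended without the same 3 libraries as that of Smad3 between liver and pancreas (adjusted p = 0.0696). Fkbp1a, which binds the type I receptor and holds it inactive, was lower by -0.78 ± 0.14 in liver and -0.70 ± 0.14 in pancreas (adjusted p = 0.00266 and 0.00497). The co-receptor Eng was higher in liver than in duodenum (1.61 ± 0.33, adjusted p = 0.00733).

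Of 9 other genes for Smads and adaptors 1 was called, only in the comparisons with duodenum. That is 11.1% in each, against 7.32% and 7.7% of all genes. The gene was Ep300, a co-activator of many transcription factors. Its log2 difference from duodenum was 1.17 ± 0.14 for liver (SE, adjusted p = 8.72e-05) and 0.65 ± 0.13 for pancreas (adjusted p = 0.00717, edgeR). Without liver 2, pancreas 3 and pancreas 4 together, the call in pancreas ended (adjusted p = 0.121). Smad2 and Smad4, partners of Smad3, averaged 14.8 ± 2.33 and 4.91 ± 0.336 TPM in liver, 14.3 ± 4.42 and 4.60 ± 0.396 TPM in pancreas and 17 ± 1.45 and 3.80 ± 1.01 TPM in duodenum (SD, n = 4 each). Both were named after their values were seen, and neither was called. The mean Smad2 level was above that of Smad3 in each tissue.

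Among 12 other inhibitors, 1 was lower in liver than in duodenum, and in pancreas 2 were higher and 2 lower. These were 8.33% and 33.3% of the 12, against 7.32% and 7.7% of all genes. Smurf2, a ubiquitin ligase that works with Smad7, was lower in pancreas by -0.74 ± 0.15 (SE, adjusted p = 0.00657), and Nedd4l, another ligase of Smads, was higher by 0.75 ± 0.15 (adjusted p = 0.00543, edgeR), though not without those 3 libraries (adjusted p = 0.0771). Ski, a co-repressor related to Skil and named after its values were seen, was higher in pancreas by 0.66 ± 0.19 (adjusted p = 0.0443). Its TPM overlapped, at 2.37 to 3.28 in pancreas and 1.46 to 2.64 in duodenum, and its call was not tried under the alternatives. Strap, which works with Smad7 at the receptor, was lower in liver (-0.53 ± 0.13, adjusted p = 0.026) and in pancreas (-0.68 ± 0.13, adjusted p = 0.00533). The call of Strap in liver ended without any of 6 single libraries. Pmepa1, an inhibitor that TGF-beta itself induces in many cells, averaged 4.14 ± 0.381 TPM in liver, 3.02 ± 0.645 TPM in pancreas and 3.15 ± 0.175 TPM in duodenum, and was not called; it too was named after its values were seen. Of 5 genes that remove inhibitors, Uchl5 was called higher in pancreas than in duodenum (0.44 ± 0.11, adjusted p = 0.029, edgeR), a call lost without any of 11 of the 12 libraries. That is 20% of the 5, against 7.7% of all genes.

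Genes known as TGF-beta targets in other cells moved in both directions. Of 25, 5 were higher and 6 lower in liver than in duodenum, 7 higher and 4 lower in pancreas than in duodenum, and 1 higher and 2 lower in liver than in pancreas. These calls were 44%, 44% and 12% of the 25, against 7.32%, 7.7% and 1.11% of all genes. Among genes with a mean of at least 1 CPM, fitted alone, the share of all genes called was 26.2%, 26.5% and 5.42%. The 25 genes were listed with earlier results of these data known. Cd207, encoding the lectin langerin of skin DCs, was at 25.1 ± 3.44 TPM in liver, 47.7 ± 14.6 TPM in pancreas and 0.238 ± 0.283 TPM in duodenum (SD, n = 4 each). Its log2 difference from duodenum was 6.53 ± 0.98 for liver (SE, adjusted p = 0.00168) and 7.52 ± 1.03 for pancreas (adjusted p = 0.000721, edgeR). Axl, a receptor for apoptotic cells, was at 2.18 ± 1.23 TPM in liver, 17.2 ± 3.18 TPM in pancreas and 1.44 ± 0.346 TPM in duodenum, and was higher in pancreas than in duodenum by 3.51 ± 0.38 (SE, adjusted p = 3.12e-05) and lower in liver than in pancreas by -3.10 ± 0.37 (adjusted p = 0.000352, edgeR). Id3, an inhibitor of E proteins, was at 175 ± 5.99 TPM in liver, 0.617 ± 0.518 TPM in pancreas and 0.680 ± 0.336 TPM in duodenum. It was higher in liver than in duodenum (7.85 ± 0.58, adjusted p = 1.81e-06) and than in pancreas (8.09 ± 0.59, adjusted p = 3.12e-06). Tgfbi, also among the 25 and named after its values were seen, was at 110 ± 14.1 TPM in liver, 151 ± 12.9 TPM in pancreas and 19.3 ± 2.36 TPM in duodenum. Its log2 difference from duodenum was 2.34 ± 0.15 for liver (adjusted p = 4.45e-07) and 2.89 ± 0.15 for pancreas (adjusted p = 6.00e-08, edgeR).

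Junb, an AP-1 factor that is also an immediate-early gene, ran the other way from Cd207, at 148 ± 6.47 TPM in liver, 179 ± 33.3 TPM in pancreas and 934 ± 143 TPM in duodenum (SD, n = 4 each). Its log2 difference from duodenum was -2.82 ± 0.16 for liver (SE, adjusted p = 1.45e-07) and -2.46 ± 0.16 for pancreas (adjusted p = 2.99e-07, edgeR). Bhlhe40, a transcription factor, was at 8.96 ± 3.06 TPM in liver, 28.9 ± 6.14 TPM in pancreas and 53.3 ± 14 TPM in duodenum. It was lower in liver than in duodenum by -2.73 ± 0.30 (SE, adjusted p = 5.12e-05, edgeR), and pancreas against duodenum was not called (-0.95, adjusted p = 0.0537). It was lower in liver than in pancreas by -1.78 ± 0.29 (adjusted p = 0.00534), though not without liver 2, pancreas 3 and pancreas 4 (adjusted p = 0.103). Cdkn2b, a cell cycle inhibitor, was higher in pancreas than in duodenum by 3.17 ± 0.86 (adjusted p = 0.0365), which was lost without any of 9 single libraries. Itgae, the gene of the sorted marker CD103, was at 91.5 ± 14.3 TPM in liver, 88.2 ± 5.42 TPM in pancreas and 143 ± 23.7 TPM in duodenum. Its log2 difference from duodenum was -0.81 ± 0.17 for liver (SE, adjusted p = 0.00704) and -0.77 ± 0.16 for pancreas (adjusted p = 0.00899, edgeR).

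The genes with the pattern most like that of Smad3 over the 12 libraries were Il13ra1, Trf, Fgfr1, Ehd4 and Pglyrp1, with a root mean square difference of centred log2 CPM of 0.32, 0.35, 0.35, 0.40 and 0.44, against a median of 1.23 over the 8638 genes searched. For Smad7 they were Gabarapl2, Lmtk2, Vps37c, Hagh and Cdc25a, at 0.14 to 0.17 against a median of 0.51. For Furin they included Slc22a21, Zfp276, Tubb2a and Tnfrsf10b, at 0.11 to 0.13 against a median of 0.49. The searched genes averaged at least 10 CPM, and all values of a library share its depth and scaling.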

How the data were processed

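PolyA RNA of sorted migratory DCs was sequenced in bulk. kallisto and the build GRCm39 are named, per the submitters' processing notes. The sources used here do not state the index, annotation or strand setting, so reads from genes that overlap on opposite strands cannot be told apart. The authors deposited estimated counts and TPM for 55401 genes in 12 libraries. Dividing each deposited count by its TPM gave a ratio that splits into a gene and a library term (largest log2 deviation 1.1e-09 over 12632 genes), the form of counts rebuilt from TPM.

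After rounding, the estimated counts were fitted in R 4.3.3 by edgeR 4.0.16 (filterByExpr with a minimum count of 10, TMM, a robust quasi-likelihood fit to all 12 libraries without a block). Benjamini-Hochberg adjustment covered the 44624 genes tested, with a threshold of 0.05. SE is the absolute log2 difference over the square root of F, and 95% intervals use it. CPM is scaled by TMM. The code was tested on simulated data. Reads are not stated to carry molecular identifiers, so counts are not independent molecules, and totals of 220.9 to 356.1 M overstate precision if reads are duplicates. No value column was left unused.

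Alternatives were DESeq2 1.42.0, its size factors, library totals, limma 3.58.1 on log2(TPM + 0.1) or log2(TPM + 1), other filters, the tissues compared alone, a replicate block and omitted libraries. The 10 genes and the pathway and marker lists were chosen with earlier results of these data known. Named were the 10 genes, up to 3 called pathway genes per role and comparison by size of the log2 difference, sort and cDC1 genes, and, for the 3 members with the largest called differences, the 5 most similar genes of at least 10 CPM (log2 CPM with a prior count of 2). A gene that this rule names is not reported here.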

Additional observations from a re-analysis of the deposited data

Results flagged for a closer look

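In 84 groups of 4 libraries (the 10 genes and 18 named pathway genes in 3 tissues), 7 held a library whose gap to the nearest other exceeded the 95% critical value of Dixon's test. Chance flags about 1 in 20 groups. Among the 10 genes, Tgfb3 was at 2.24 TPM in liver 2 and 0.117 to 0.439 TPM in the other liver libraries. Itgb8 was at 0.453 TPM in duodenum 2 and 0.147 to 0.154 TPM in the others of duodenum. Smad3 was at 2.82 TPM in liver 1, against 1.44 to 1.66 TPM, and at 7.22 TPM in pancreas 1, against 4.21 to 4.56 TPM.

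Of the other pathway genes, Ep300 was at 23.9 TPM in liver 1 (20.2 TPM in each of the other liver libraries after rounding) and at 15.6 TPM in pancreas 2 (13 to 13.3 TPM). Axl was at 0.922 TPM in duodenum 2, below the 1.55 to 1.66 TPM of the other duodenum libraries.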

How the results depend on the processing

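Of the 30 results on the 10 genes, 9 were called, and 3 kept their call under all 23 alternatives: Smad3 in both comparisons with duodenum and Smad7 between pancreas and duodenum. The count of the 10 genes called between liver and duodenum, 4, was 2 with DESeq2 size factors. Without liver 2, pancreas 3 and pancreas 4 together, the counts were 1 between liver and duodenum, 2 between pancreas and duodenum and 0 between liver and pancreas. With single libraries left out they ran from 2 to 5, from 4 to 5 and from 1 to 1, and with the replicate block they were 4, 4 and 1.

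Over all genes, 3265 were called between liver and duodenum, against 5133 with DESeq2, 4958 and 4900 with limma (pseudocounts 0.1 and 1) and 2069 without the 3 libraries. Between pancreas and duodenum, 3437 were called, against 1712 without the 3 libraries. Between liver and pancreas, 494 were called, against 820 with library totals, 1158 with DESeq2, 865 and 889 with limma, 946 with a mean of at least 1 CPM and 177 without the 3 libraries. Single omitted libraries gave 2397 to 4807, 2596 to 4716 and 343 to 749, each highest without duodenum 2. The replicate block gave 2931, 3125 and 436. Deviations of same-numbered libraries correlated at -0.0406 to 0.0923 over 12 pairs, and those of other pairs at -0.134 to 0.122 over 36. The labels do not say whether same-numbered libraries share mice or a day, and these correlations cannot decide it. The share higher with limma was 63.7 to 64.8% between liver and duodenum and 57.1 to 57.3% between liver and pancreas.

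With single libraries left out, Tgfb3 ran from -0.70 to 1.02 and Itgb8 from -0.13 to 1.13 between liver and duodenum, and between liver and pancreas Tgfb1 ran from -0.02 to 0.18, Tgfb2 from -0.44 to 0.46 and Tgfb3 from -0.47 to 1.26 (log2). The sign reversed in 19 of 1303 values of single genes, none called either way. Between liver and duodenum these were Tgfb3 (-0.70 and -0.70) and Itgb8 (-0.13 and -0.13), without liver 2 and without the 3 libraries, and between pancreas and duodenum Tgfb3 without the 3 libraries (0.05). Between liver and pancreas they were Skil with library totals (0.01), limma (0.03, 0.02 and 0.03) and without the 3 libraries (0.05), and Tgfb2 with limma (0.12, 0.01 and 0.12) and without pancreas 2 (0.46). There too were Tgfb1 without the 3 libraries (-0.01) and without pancreas 4 (-0.02), Tgfb3 without the 3 libraries (-0.75) and without liver 2 (-0.47), and Tgfbr2 without the 3 libraries (0.15). Itgb8 and Fstl3 could not be given under limma where its filter removed them. The cause of these shifts was not tested. Itgb8, Tgfb2 and Tgfb3, all under 1 TPM on average in each tissue, had the widest intervals of the 10 genes.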

Other observations

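The neighbouring activin and BMP branch, whose receptors and Smads resemble those of TGF-beta, was mostly low. Of 24 genes 1, Fstl3, an activin antagonist, was called lower in each comparison with duodenum, with a log2 difference of -2.85 ± 0.63 for liver (SE, adjusted p = 0.0116) and -2.50 ± 0.62 for pancreas (adjusted p = 0.0215, edgeR). That is 4.17% of the 24 in each, against 7.32% and 7.7% of all genes. Fstl3 was at 0.244 ± 0.0281 TPM in liver, 0.297 ± 0.21 TPM in pancreas and 1.61 ± 1.13 TPM in duodenum (SD, n = 4 each), and the call in pancreas ended without pancreas 1, with the 8 libraries compared alone, and without liver 2, pancreas 3 and pancreas 4. Smad1, which serves BMP receptors, averaged 7.51 ± 1.95 TPM in liver, 6.52 ± 1.13 TPM in pancreas and 5.75 ± 1.53 TPM in duodenum, and was not called. Acvrl1, a type I receptor counted above among the receptors and best known from endothelium, was at 53.3 ± 11.6 TPM in liver, 49.8 ± 2.82 TPM in pancreas and 67.8 ± 7.55 TPM in duodenum, above Tgfbr1 in each tissue. The summed endothelial markers were also highest in duodenum, mostly through Vwf. Pecam1 averaged 8.63 CPM in liver and 9.57 CPM in duodenum. Cdh5, Kdr and Tek averaged highest in liver, at 0.892, 2.14 and 0.551 CPM, against 0.677, 1.58 and 0.468 CPM in duodenum. The part of endothelial cells in the Acvrl1 level was not tested. Acvrl1 and Smad1 were named after their values were seen, and Acvrl1 was not called either.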
